A study of Mus musculus with 12 samples.

Results

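Iron homeostasis and its hormone hepcidin were examined through 10 genes named for their place in that system: Hamp, Hamp2, Bmp6, Hfe, Tfr2, Id1, Fth1, Ftl1, Tfrc and Slc40a1. The genes were chosen by name, with earlier results of these data known. All 10 of the 10 were listed among the 14195 genes of the protein-coding table, with 23 of its 29883 transcripts. The value of a gene was the sum of the FPKM of its listed protein-coding transcripts, a linear abundance in which fragments are divided by transcript length and library size.

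Hepcidin is a peptide hormone that hepatocytes release into the blood, where it binds the iron exporter ferroportin and causes its breakdown, so that less iron leaves macrophages, hepatocytes and the gut. Its gene is switched on by BMP ligands from the liver endothelium through SMAD proteins, and by interleukin 6 through STAT3. Inside cells, iron-regulatory proteins bind hairpins in messenger RNAs and set how much ferritin, ferroportin and transferrin receptor is made, so that RNA levels of these genes do not give their protein levels.

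Liver RNA came from male mice with hepatic fibrosis induced by CCl4, a solvent that injures hepatocytes, with 6 mice in the control group and 6 in the PZH group. The strain is given as C57BL/8 in the labels and as C57BL/6J in the study's methods, no altered allele is named, and the mice were 6 weeks old at the start. Both groups received 2 intraperitoneal injections a week of 10 µl/g of CCl4 mixed with corn oil. Mice of the PZH group were also given Pien Tze Huang (PZH), a traditional Chinese formula, by daily gavage at 0.25 mg/g, those of the control group were given water by gavage, and all 12 mice were killed in week 8. No mouse without CCl4 was among the samples, so values in uninjured liver were not analysed here. The tissue label was checked against hepatocyte markers: all 7 were above 0 in each mouse, with Alb, the gene of albumin, at 33360 FPKM or more in the PZH mice and 18015 or more in the control mice. The sum of FPKM over all listed transcripts lay between 325302 and 370426 per mouse, and no 2 of the 12 mice had identical values (0 of 66 pairs).

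Of the 10 iron genes, 5 fell and 1 rose in the PZH group (limma adjusted p under 0.05). Across all 14195 genes tested, 32.1% were called lower and 12.7% higher. The 5 that fell were Hamp, Id1, Fth1, Ftl1 and Bmp6, and the 1 that rose was Hfe. By the study's criteria, a 2-fold change with an unadjusted P under 0.05, Hamp and Id1 were lower and 0 of the 10 were higher, against 2.5% lower and 1.51% higher of all genes. The 6 PZH mice lay below all 6 control mice for 4 genes, Hamp, Id1, Fth1 and Ftl1, and above them for 0 genes, against 17.9% and 6.46% of all genes.

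The median log2 fold change was -0.25 over the 10 genes, or -0.095 with the median-ratio scale factor, and -0.11 over all genes. Division by that factor, which brings the typical transcript to one level across mice, moved the median of all genes by 0.11 to -0.005. It changed the split of all calls from 1798 higher and 4560 lower to 2735 higher (19.3%) and 2795 lower (19.7%), and that of the iron genes to 2 higher and 4 lower. Changes of the 10 genes are therefore also given relative to the median of all genes. The median log2(FPKM + 1) of all genes in a mouse averaged 2.22 ± 0.0774 in PZH mice and 2.42 ± 0.0431 in control mice (SD, n = 6; two-sided exact permutation test, p = 0.0022, the smallest that relabelling these mice can give).

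Hamp, which encodes hepcidin, had the highest mean level of the 10 genes in each group on the FPKM scale, which is per length, although Ftl1 was higher in PZH 4 and PZH 6. Levels, as lowest, median and highest, were 699, 1162 and 1968 FPKM in the PZH mice and 2027, 2586 and 3624 FPKM in the control mice. The groups did not overlap, although the highest PZH mouse came close to the lowest control mouse. Mean levels were 1273 ± 523 and 2690.0 ± 544 FPKM (SD, n = 6 per group), 2.11 times as high in the control group. The log2 fold change was -1.16 (SE 0.24, 95% interval -1.68 to -0.63, limma adjusted p = 0.00194), or -1.05 relative to the median of all genes. With the median-ratio scale factor Hamp changed by -0.97 (limma adjusted p = 0.00722), just short of the 2-fold change of the study's criteria. Bulk liver RNA does not separate the number of cells of a type from the RNA per cell. Of 7 hepatocyte markers 3 rose (Alb, Ttr and Cps1) and 1 fell (Hnf4a), against 12.7% higher and 32.1% lower of all genes. Their summed level was 41722 to 58190 FPKM in the PZH mice and 23770 to 37620 FPKM in the control mice. The part of cell numbers in the change of Hamp was not tested.

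Hamp2 is a mouse paralog of Hamp that lies beside it on chromosome 7 and does not have the established iron-hormone role of Hamp. Its lowest, median and highest levels were 25.6, 60.1 and 103 FPKM in the PZH mice and 5.99, 29.4 and 64.5 FPKM in the control mice. The groups overlapped, with 3 of the 6 PZH mice above the highest control mouse. The log2 fold change of 1.05 (SE 0.49) did not pass the test (limma adjusted p = 0.0981), and relative to the median of all genes it was 1.16. Without control 3 it was 1.29 and passed (adjusted p = 0.0441, with 0.0441 to 0.190 over the alternatives), and without control 4 it was 0.65 and did not pass (adjusted p = 0.182). Within a mouse, the log2 ratio of Hamp2 to Hamp averaged -4.40 ± 1.19 in PZH mice and -6.65 ± 1.03 in control mice (SD, n = 6). The difference of 2.25 had an exact permutation p of 0.00649, or 0.0216 after adjustment over the 10 single values tested. The listed transcript of Hamp, of 410 bases, and the most abundant one of Hamp2, of 420 bases, were identical at 94.6% of 410 aligned bases. Reads of one gene may therefore have been assigned to the other, and Hamp2 values in particular are uncertain.

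Bmp6, the ligand that liver endothelial cells release in response to iron, was the lowest of the 10 genes on the FPKM scale. Its lowest, median and highest levels were 1.25, 1.65 and 1.89 FPKM in the PZH mice and 1.71, 2.21 and 3.31 FPKM in the control mice. The groups overlapped in 1 PZH mouse, the other 5 lying below the lowest control mouse. Bmp6 changed by -0.34 on the log2 scale (SE 0.10, limma adjusted p = 0.0173), -0.23 relative to the median of all genes, and the call was lost with the median-ratio scale factor (-0.21, adjusted p = 0.0762, with 0.00737 to 0.0762 over the alternatives). At this level, the pseudocount of 1 makes the fold smaller than the ratio of means, which was 1.44 in favour of the control group.

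Hfe encodes the hemochromatosis protein, which acts in hepatocytes upstream of hepcidin. Its lowest, median and highest levels were 17.6, 19.6 and 24.2 FPKM in the PZH mice and 14.5, 16.4 and 19.0 FPKM in the control mice. The groups overlapped, with 4 PZH mice above the highest control mouse. Hfe rose by 0.27 on the log2 scale (SE 0.08, limma adjusted p = 0.0170), or 0.38 relative to the median of all genes. With the median-ratio scale factor Hfe rose by 0.45 (limma adjusted p = 0.00474). Its most abundant transcript, ENSMUST00000091706 (6 exons), made up 72.2% of Hfe FPKM in PZH mice and 77.9% in control mice. That transcript changed by 0.16 on the log2 scale and did not pass (limma adjusted p = 0.309). The shorter ENSMUST00000151243 (2 exons) changed by 0.57 and did not pass either (limma adjusted p = 0.0782). Tfr2, transferrin receptor 2, works with the hemochromatosis protein as a sensor of iron-loaded transferrin. Its levels were 40.9, 51.7 and 58.9 FPKM in the PZH mice and 51.4, 56.6 and 63.4 FPKM in the control mice, again lowest, median and highest. These ranges overlapped, and the log2 fold change of -0.16 (SE 0.09) did not pass the test (adjusted p = 0.168). It was -0.05 relative to the median of all genes and turned to 0.02 with the median-ratio scale factor.

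Id1, a direct target gene of BMP/SMAD signalling, had the largest absolute log2 fold change of the 10 genes. Its lowest, median and highest levels were 7.32, 9.97 and 15.6 FPKM in the PZH mice and 26.3, 44.4 and 52.5 FPKM in the control mice. No PZH mouse reached the lowest control mouse, PZH 1 and PZH 2 were the highest of their group, and control 4 stood lowest in the other. Mean levels of 11.2 ± 3.54 and 42.3 ± 8.95 FPKM (SD, n = 6 per group) gave a ratio of 3.77 in favour of the control group. The log2 fold change was -1.84 (SE 0.20, 95% interval -2.27 to -1.42, limma adjusted p = 2.69e-05), or -1.73 relative to the median of all genes. With the median-ratio scale factor Id1 changed by -1.66 (limma adjusted p = 8.61e-05).

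**Figure D1:**
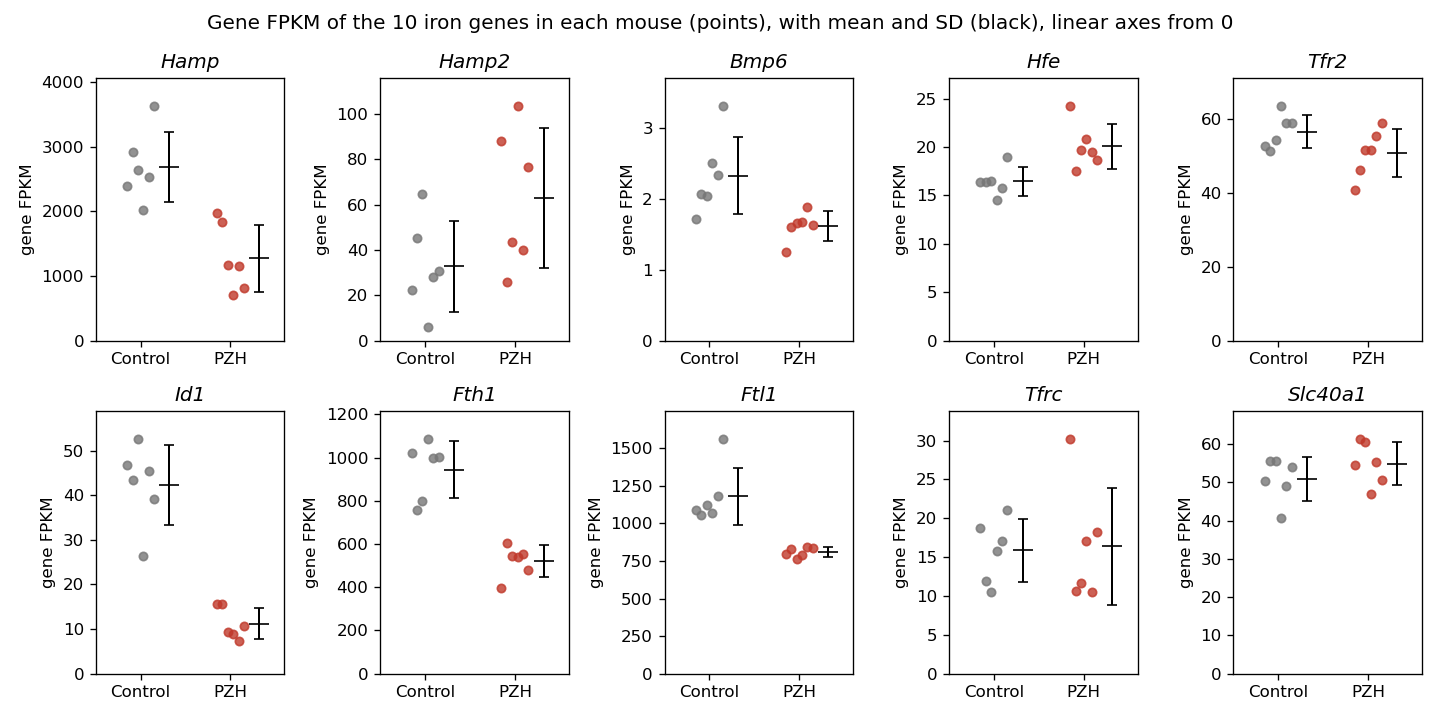
Gene FPKM (vertical axes, linear and starting at 0) of the 10 iron genes in the 6 control and 6 PZH mice, 1 point per mouse, with the mean and SD of each group in black. For Hamp, Id1, Fth1 and Ftl1 the PZH points lie below all control points, while the points of the other 6 genes overlap.

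Fth1 and Ftl1 encode the heavy and light chains of ferritin, the shell in which cells store iron. Fth1 levels were 395, 542 and 607 FPKM in the PZH mice and 759, 999.6 and 1084 FPKM in the control mice (lowest, median and highest). The groups did not overlap. Fth1 changed by -0.86 on the log2 scale (SE 0.12, limma adjusted p = 0.000114), or -0.75 relative to the median of all genes. With the median-ratio scale factor Fth1 changed by -0.68 (limma adjusted p = 0.000196). Ftl1 levels were 763, 816 and 842 FPKM in the PZH mice and 1055, 1106 and 1559.9 FPKM in the control mice. These groups were also apart, with control 6 far above the rest of its group. Ftl1 changed by -0.53 (log2; SE 0.09, limma adjusted p = 0.000468), or -0.42 relative to the median of all genes. With the median-ratio scale factor Ftl1 changed by -0.345 (limma adjusted p = 0.00755).

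Ftl1-ps1, a listed copy of Ftl1, was named after its values were seen. Its transcript matched that of Ftl1 at 906 of 910 aligned bases, so the assignment of reads between them is uncertain. It stood at 15.2 ± 0.580 FPKM in PZH mice and 22.2 ± 3.11 FPKM in control mice (SD, n = 6), a log2 fold change of -0.51 (limma adjusted p = 0.000320). The log2 ratio of Fth1 to Ftl1 within a mouse averaged -0.65 ± 0.22 in PZH mice and -0.32 ± 0.25 in control mice (SD, n = 6). The difference of -0.33 had an exact permutation p of 0.0455, or 0.0909 after adjustment over the 10 single values, and thus did not pass.

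Tfrc, transferrin receptor 1, takes up iron bound to transferrin. Among the PZH mice the lowest, median and highest Tfrc levels were 10.5, 14.4 and 30.1 FPKM, and among the control mice they were 10.5, 16.5 and 21.1 FPKM. The ranges overlapped almost fully, with PZH 1 alone above the control mice. On the log2 scale the change was -0.02 (SE 0.24, 95% interval -0.54 to 0.51, limma adjusted p = 0.962), while it was 0.09 relative to the median of all genes and 0.16 with the median-ratio scale factor. The log2 ratio of Tfrc to Fth1 averaged -5.08 ± 0.80 in PZH mice and -5.92 ± 0.24 in control mice (SD, n = 6), a difference of 0.84 (exact permutation test, p = 0.0152, adjusted p = 0.0379). As Tfrc changed by -0.02 and Fth1 by -0.86, this difference mainly restates the fall of Fth1 and is no separate result for Tfrc. Without control 3 the unadjusted exact permutation p of this ratio was 0.05195.

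Slc40a1 encodes ferroportin, the iron exporter on which hepcidin acts. Ferroportin RNA had lowest, median and highest levels of 46.9, 55.0 and 61.2 FPKM in the PZH mice and 40.5, 52.15 and 55.6 FPKM in the control mice. The groups overlapped, with 2 PZH mice above the highest control mouse. Its log2 fold change of 0.11 (SE 0.09) did not pass the test (limma adjusted p = 0.354), and relative to the median of all genes it was 0.22. Without control 4 it was 0.05 (adjusted p = 0.667). With the median-ratio scale factor it was 0.29 and passed (adjusted p = 0.0195, with 0.0195 to 0.667 over the alternatives).

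Of the 23 listed transcripts of the 10 genes, 7 fell and 0 rose with limma over all transcripts (adjusted p under 0.05), against 14% lower and 5.73% higher of all transcripts tested. At an unadjusted P under 0.05, 8 of the 23 were lower and 1 was higher, the Hfe transcript ENSMUST00000151243, against 22% lower and 9.45% higher of all transcripts. The 7 were those of Hamp (ENSMUST00000062620), Fth1 (ENSMUST00000025563), Ftl1 (ENSMUST00000094434) and Bmp6 (ENSMUST00000171970), both of Id1 and 1 of the 6 of Tfr2. The Bmp6 transcript (adjusted p = 0.0420, with 0.0211 to 0.144 over the alternatives) lost its call with a pseudocount of 0.1, the mean-variance trend and the median-ratio scale factor, and without PZH 1, 2, 3, 4 or 6 or control 4, 5 or 6 (adjusted p up to 0.0825). The spliced Id1 transcript ENSMUST00000038368 (2 exons) changed by -1.83 and the unspliced ENSMUST00000109824 (1 exon) by -1.25 on the log2 scale. These share the positions 152736251 to 152737410 of chromosome 2 (GRCm38), and the spliced one made up 91.9% and 91.6% of Id1 FPKM in the PZH and control groups.

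The Tfr2 transcript ENSMUST00000198866 (chromosome 5, 137569840 to 137587479, 19 exons) fell by 0.33 on the log2 scale (SE 0.11, limma adjusted p = 0.0498), and its call was lost with the median-ratio scale factor (adjusted p = 0.364, with 0.0263 to 0.364 over the alternatives). The call was also lost with a pseudocount of 0.1, the mean-variance trend and no variance moderation, and without PZH 1, 2, 3, 4 or 5 or control 1, 3, 4, 5 or 6 (adjusted p up to 0.0992). Its share of Tfr2 FPKM, which does not depend on scaling, was 36.0% ± 2.0 in PZH mice and 41.0% ± 2.31 in control mice (SD, n = 6; exact permutation test, p = 0.00433, adjusted p = 0.0216). For the share of the most abundant transcript of Hamp2, Tfrc, Slc40a1, Id1 and Hfe the difference did not pass the test, with exact permutation p of 0.201 to 0.911. Without PZH 3 the difference for Hamp2 was 0.90 points (unadjusted exact permutation p = 0.0390). Without PZH 6 that for Hfe was -8.37 points (unadjusted exact permutation p = 0.0455).

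Iron-responsive elements, the hairpins that iron-regulatory proteins bind, were searched for in the listed transcripts as a C, 5 bases, the loop CAGTG followed by A, C or T, and 5 bases that pair with the 5 before the loop. Such letters were found in 63 of 29876 transcripts (0.211%), of 39 of 14179 gene symbols (0.275%), and in 4 of the 10 iron genes. The matches in these 4 are shown because Fth1 and Ftl1 fell while the changes of Slc40a1 and Tfrc did not pass with the values as deposited, with the loop of 6 bases in capitals. They lay in the 5′ UTR, in exon 1, of Fth1 (chr19:9982738-9982754, plus strand), Ftl1 (chr7:45459785-45459801, minus strand) and Slc40a1 (chr1:45925471-45925487, minus strand). In Tfrc there were 3, in the 3′ UTR in exon 19 of ENSMUST00000023486 (chr16:32631225-32631241, chr16:32631669-32631685 and chr16:32631716-32631732, plus strand). A match describes the letters and is no measure of binding. The pattern asks for full pairing and this loop, so elements that differ from it are missed. The matches are therefore no full count, and a gene without a match may still hold an element.
Fth1: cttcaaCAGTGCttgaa
Ftl1: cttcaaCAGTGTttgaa
Slc40a1: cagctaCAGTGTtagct
Tfrc, site at 3321: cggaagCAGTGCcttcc
Tfrc, site at 3765: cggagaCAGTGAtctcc
Tfrc, site at 3812: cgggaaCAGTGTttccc

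RefSeq promoters (GRCm38.p6, 250 bases before to 50 after the start) matched 8 of the 10 genes, all but Id1 and Slc40a1. They were searched on both strands for GGCGCC, a word of BMP-responsive elements, and TTCTTGGAA, a word of STAT-binding elements. Of 32851 promoters, 11.9% held GGCGCC, 0.417% held TTCTTGGAA and 0.0213% held both. Among the 8, Hamp and Tfrc held GGCGCC, Hamp and Hamp2 held TTCTTGGAA, and Hamp alone held both, in non-overlapping positions. Only the first promoter listed for a gene was used. The windows of Fth1 (chr19:9980350-9980649) and Bmp6 (chr13:38345466-38345765) did not hold the starts of their listed transcripts (9982646 and 38345107). For those genes the search does not describe the promoter of the measured transcript. The stretches from base -150 to -51 before the start of Hamp (chr7:30944080-30944179, minus strand) and Hamp2 (chr7:30924232-30924331, minus strand) are shown with these words in capitals, since Hamp fell and its paralog did not pass the test with all 12 mice. They were identical at 87 of 97 aligned bases. Counted from 1 at the 5′ end of GGCGCC in Hamp, the difference within that word in Hamp2 was G4A. Whether these letters bear on the difference was not tested.
Hamp: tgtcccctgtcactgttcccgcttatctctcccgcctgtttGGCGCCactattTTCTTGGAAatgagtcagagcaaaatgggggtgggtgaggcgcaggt
Hamp2: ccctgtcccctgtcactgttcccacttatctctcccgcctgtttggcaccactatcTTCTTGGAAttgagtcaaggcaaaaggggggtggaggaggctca

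Around the 10 genes, 7 lists of pathway genes held 126 listed genes, of which 52 fell and 16 rose, with a median log2 fold change of -0.20 against -0.11 over all genes. The lists include the 10 iron genes, and some genes, such as Lcn2, stand in several lists, so that the counts per list add to more. Of all genes, 32.1% were called lower and 12.7% higher, which is also the background for each list. With the median-ratio scale factor, 41 were lower and 27 higher, against 19.7% and 19.3% of all genes with that factor. With equal sums per mouse 55 were lower and 11 higher, but the share of all genes with equal sums is not given here, so these counts have no background. With the median-ratio scale factor the list medians were -0.094 for hepcidin and BMP/SMAD, -0.82 for the acute phase, -0.035 for uptake and export, -0.43 for storage, -0.10 for sensing, 0.24 for heme and 0.22 for iron-sulfur clusters, against -0.005 over all genes. Of the 31 listed genes of the hepcidin and BMP/SMAD list, 13 fell and 3 rose, with a median of -0.22. Beside Id1 and Hamp, the gene of this list with the largest fall without overlap was Id3, another target of BMP/SMAD signalling, at 11.6 ± 2.62 FPKM in PZH mice and 26.1 ± 3.78 FPKM in control mice (SD, n = 6; log2 fold change -1.11, limma adjusted p = 3.99e-05). The 3 that rose were Hfe, Hfe2 and Tmprss6, of which the last 2 were named after their values were seen. Hfe2, which encodes the BMP co-receptor hemojuvelin, rose from 11.9 ± 6.0 to 25.9 ± 4.02 FPKM (SD, n = 6; log2 fold change 1.17, adjusted p = 0.00231). Tmprss6, a protease that cleaves hemojuvelin, rose from 60.5 ± 5.82 to 77.2 ± 12.6 FPKM (log2 fold change 0.34, adjusted p = 0.0233, and 0.0588 with equal sums per mouse, within 0.00121 to 0.0588 over the alternatives), and its call was also lost without control 1, PZH 5 or PZH 6 (adjusted p = 0.0524, 0.0513 and 0.0541). Without control 2, 5 genes of the list were called higher.

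The list of the IL-6/STAT3 arm and acute-phase genes had the lowest median of the 7, -1.0. Of its 21 listed genes, 17 fell, 0 rose and 4 did not pass. At an unadjusted P under 0.05, 0 of the 21 were higher, and without PZH 1 the count higher at the adjusted threshold was 1. Lcn2, which encodes the siderophore-binding protein lipocalin 2, fell from 228 ± 193 to 43.6 ± 9.18 FPKM (SD, n = 6; log2 fold change -2.06, limma adjusted p = 0.000901). Orm2, an orosomucoid of the acute phase, changed by -1.81, and Fga, the fibrinogen alpha chain, by -1.31 on the log2 scale, both without overlap between the groups. Control 4 stood apart, with 606 FPKM of Lcn2 and 91.9 of Orm2 against 78.1 to 224 and 9.89 to 36.7 in the other control mice. The same mouse was highest for Saa1 (893 against 16.8 to 153), Saa2 (494 against 6.61 to 70.9) and Hp (4387 against 872 to 2299.5 FPKM), 3 genes named after their values were seen. Control 2 was the lowest control mouse for all 5 and lay within the range of the PZH mice for Saa1, Saa2 and Hp. Without control 4, 17 genes of the list were called lower, and Lcn2 changed by -1.71 and Orm2 by -1.47 on the log2 scale. Without control 2, 18 were called lower. Hamp, by contrast, was lowest among the control mice in control 4, at 2027 FPKM.

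Among 21 listed genes of iron uptake, export and plasma transport, 8 fell and 3 rose, with a median of -0.22. Beside Lcn2, the largest falls without overlap were those of the metalloreductase gene Steap4 (-0.92) and of Slc11a2 (-0.91), which encodes the iron importer DMT1. Slc11a2 stood at 9.57 to 10.4 FPKM in the PZH mice and 16.3 to 26.9 FPKM in the control mice. The 3 that rose, named after their values were seen, were Steap3 (0.56), Heph (0.45) and Slc39a8 (0.19). Heph lost its call with a pseudocount of 0.1 (log2 fold change 1.17, adjusted p = 0.0608, with 0.0125 to 0.0665 over the alternatives), with the replicate block, and without control 1, PZH 5 or PZH 6 (0.0546, 0.0506 and 0.0523). Slc39a8 lost its call with a pseudocount of 0.1, equal sums per mouse, the mean-variance trend and the replicate block, and without control 1, 2, 4 or 6 or PZH 1, 2, 3 or 6 (adjusted p 0.00183 to 0.114 over the alternatives, at most 0.0870 without a mouse). Without control 1 or PZH 6, 1 gene of the list was called higher.

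Of 6 listed genes of iron storage, 5 fell and 0 rose, with a median of -0.61. The largest fall was that of Nupr1, a stress-induced transcriptional regulator, from 23.2 ± 6.06 to 4.30 ± 1.63 FPKM (SD, n = 6; log2 fold change -2.22, limma adjusted p = 1.92e-05). Pcbp1, a chaperone that delivers iron to ferritin, changed by -0.69 without overlap, and Pcbp2, named after its values were seen, by -0.51. With the median-ratio scale factor Pcbp2 changed by -0.32. Among 9 genes of iron and oxygen sensing, 4 fell and 1 rose. Aco1, which encodes iron-regulatory protein 1, rose by 0.30 on the log2 scale, from 37.8 to 42.8 FPKM in the control mice to 46.5 to 55.6 FPKM in the PZH mice. With the median-ratio scale factor Aco1 rose by 0.48. The hypoxia-inducible factor genes Hif1a (-0.63) and Epas1 (-0.61) fell, also without overlap, and Egln1 (-0.34) and Vhl (-0.52), named after their values were seen, lost their calls with the median-ratio scale factor (adjusted p = 0.0641 and 0.0516, the highest over the alternatives, with 0.00161 and 0.00284 the lowest).

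Of 23 genes of heme synthesis, scavenging and breakdown, 6 fell and 4 rose, with a median of 0.09. Hmox1, the heme-degrading enzyme, fell from 53.0 ± 10.8 to 24.6 ± 3.93 FPKM (SD, n = 6; log2 fold change -1.07, limma adjusted p = 0.000111), and the heme-binding plasma protein gene Hpx (-0.80) and the heme transporter gene Slc48a1 (-0.77) fell without overlap. The transporter genes Abcg2 (0.45) and Abcb10 (0.27, or 0.42 with the median-ratio scale factor) rose without overlap. The other 2 that rose, named after their values were seen, were the heme synthesis genes Alas1 (0.84) and Alas2 (0.30). Both lost their calls with a pseudocount of 0.1, equal sums per mouse and no variance moderation, and Alas1 also with the replicate block (adjusted p 0.0187 to 0.1003 and 0.00561 to 0.0786 over the alternatives). Alas1 lost its call also without control 1, 2, 3, 4 or 5 or PZH 1, 2, 3, 4 or 5 (adjusted p up to 0.0997), and Alas2 without control 1, 2, 3 or 6 or PZH 1, 3, 5 or 6 (up to 0.0786). Of 21 listed genes of iron-sulfur cluster assembly, 5 rose and 4 fell, with a median of 0.05. Cisd1, an iron-sulfur protein of the outer mitochondrial membrane, rose from 13.8 ± 2.59 to 31.4 ± 5.79 FPKM (log2 fold change 1.13, adjusted p = 7.17e-05). Fdx1, a mitochondrial ferredoxin, rose by 0.83 and the co-chaperone gene Hscb by 0.39, while the chaperone gene Hspa9 changed by -0.35 and lost its call with the median-ratio scale factor (adjusted p = 0.181, within 0.00183 to 0.181 over the alternatives). The other 2 that rose were Fdxr (0.29) and Ciao1 (0.19), and the other 3 that fell were Iba57 (-0.36), Fdx1l (-0.49) and Lyrm4 (-0.20), all 5 named after their values were seen. Ciao1 lost its call with equal sums per mouse, with the replicate block and without control 5 (adjusted p 0.00245 to 0.0669 over the alternatives). Fdx1l lost it with the median-ratio scale factor, with no variance moderation, and without control 3, 5 or 6 or PZH 1 or 4 (0.00639 to 0.0682). Lyrm4 lost it with the median-ratio scale factor, the mean-variance trend and the replicate block, and without control 1, 2, 4 or 5 or PZH 2, 4, 5 or 6 (0.00673 to 0.615). Without control 1, 2 or 3 or PZH 1, 3 or 5, 2 heme genes were called higher, and without control 5, 2 iron-sulfur genes were called lower. With the median-ratio scale factor the heme list had 8 higher and 5 lower, and the iron-sulfur list 8 higher and 1 lower, against 19.3% higher and 19.7% lower of all genes.

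**Figure D2:**
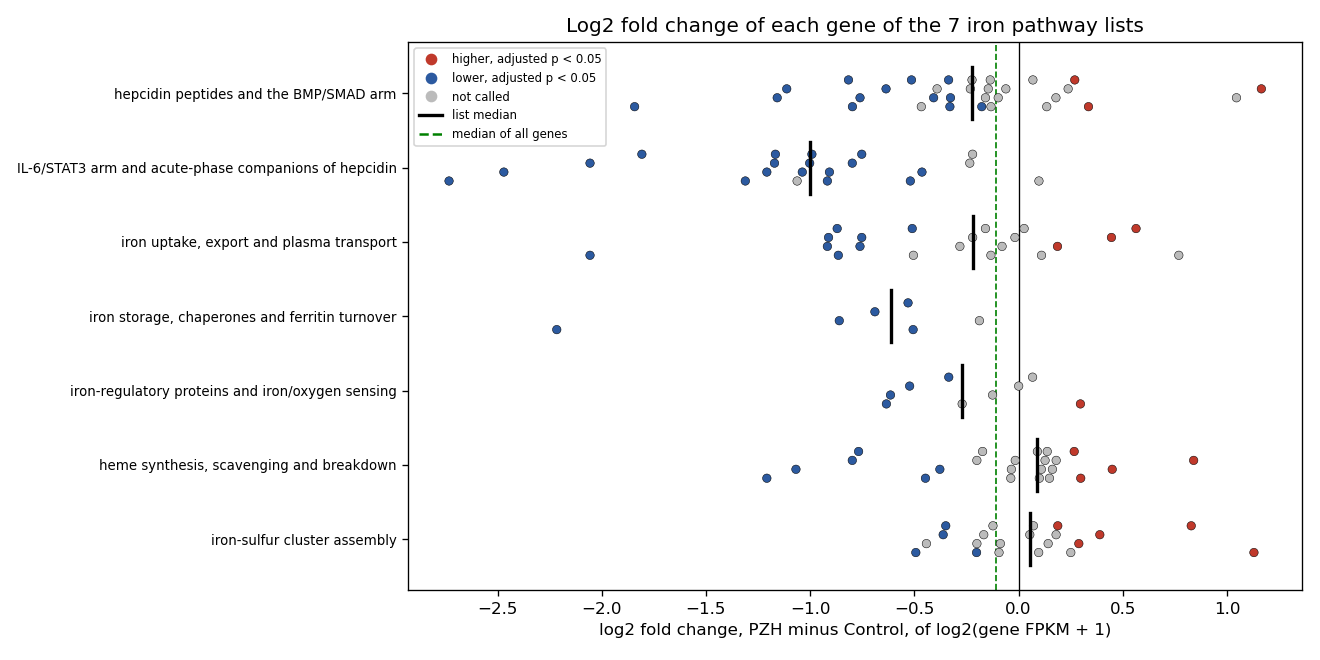
Log2 fold change (horizontal axis, PZH minus control, of log2(gene FPKM + 1)) of each listed gene of the 7 pathway lists, 1 point per gene, red and blue where higher or lower at an adjusted p under 0.05, with the list median in black and the median of all genes as a dashed line. The median of the acute-phase list, -1.0, lies farthest to the left, and those of the heme and iron-sulfur lists, 0.09 and 0.05, lie right of 0.

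Relations between iron genes were computed in each group of 6 mice alone, 14 in all, since the groups stood apart for several of the genes. In the PZH mice Fth1 and Tfrc had Pearson r of -0.93 (exact permutation p = 0.00278, adjusted p = 0.0389) and Spearman rho of -0.94 (exact permutation p = 0.0167, adjusted p = 0.117). Without the 2 mice farthest from the median of Fth1, r was -0.54, so the relation rests in part on those mice. In the control mice r was 0.83 (exact permutation p = 0.0653, adjusted p = 0.305) and rho 0.54 (exact permutation p = 0.297, adjusted p = 0.520), r turned to -0.66 without the 2 farthest mice, so that its sign rests on those mice, and the difference between the groups was not tested. Bmp6 and Id1 had r of -0.81 in the PZH mice (exact permutation p = 0.00694, adjusted p = 0.0486), rho of -0.94 (adjusted exact p = 0.117) and r of -0.91 without the 2 farthest mice. The other relations had adjusted p for r of 0.305 or more, among them Id1 with Hamp in the PZH mice (r 0.73, rho 0.66, exact permutation p = 0.0931 and 0.175, adjusted p = 0.326 and 0.35, r -0.47 without the 2 farthest). Socs3, a gene of the IL-6/STAT3 list, and Hamp had r of -0.60 and rho of -0.77 in the control mice. Neither passed (exact permutation p = 0.210 and 0.103, adjusted p = 0.463 and 0.288), and r was -0.95 without the 2 farthest mice. No sequencing batch is named in the labels, so no relation was recomputed within batches.

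After the group mean was subtracted, the genes most like Hamp over the 12 mice among 10950 with a mean of at least 1 FPKM were Pigu (r 0.93), Ssr2 (0.93) and Nmd3 (0.92). For Id1 they were 2610301B20Rik (0.92), Hsd17b7 (0.91) and Rpa2 (0.91), and for Tfrc Hist1h2af (0.91), Ints12 (0.90) and Pgk1 (0.89). These are the highest of 10950 values and are given as a description.

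Of 60 markers of cell types, 15 were called higher and 8 lower, against 12.7% higher and 32.1% lower of all genes, which is also the background for each marker list. Of 7 hepatocyte markers 3 rose (Alb, Ttr and Cps1) and 1 fell (Hnf4a), and their summed level was 41722 to 58190 FPKM in the PZH mice and 23770 to 37620 FPKM in the control mice, without overlap, with Alb the most abundant. All 6 markers of proliferating cells rose, with sums of 14.2 to 28.0 and 4.19 to 7.44 FPKM, Rrm2 the most abundant and 1 of the 6 at 0 in at least 1 mouse. Of 8 Kupffer cell and macrophage markers 3 rose (Clec4f, Vsig4 and Csf1r) and 2 fell (Marco and Cd68), with sums of 203 to 299.67 and 193 to 256 FPKM and Cd5l the most abundant. Of 9 markers of the sinusoidal endothelium, which makes Bmp6, 0 rose and 2 fell (Lyve1 and Pecam1), with sums of 121 to 152 and 129 to 145 FPKM and Clec4g the most abundant. Of 7 erythroid markers 1 rose (Alas2) and 0 fell, with sums of 564 to 1261 and 777 to 1155 FPKM and Hbb-bs the most abundant. Of 7 stellate cell and fibroblast markers 2 rose (Reln and Col3a1) and 1 fell (Des; 274 to 350 and 200.1 to 309 FPKM, Dcn highest), of 5 cholangiocyte markers 0 rose and 1 fell (Sox9; 66.9 to 133 and 96.9 to 161 FPKM, Spp1 highest). Of 5 neutrophil markers 0 rose and 1 fell (Csf3r; 13.2 to 139 and 18.4 to 62.5 FPKM, S100a8 highest; the 139 is PZH 3 alone, the other PZH mice having 13.2 to 22.8), and of 6 lymphocyte markers 0 rose and 0 fell (2.03 to 3.60 and 1.95 to 3.63 FPKM, Cd79a highest). Without PZH 3, S100a8 changed by -0.89 and passed (adjusted p = 0.0493, with 0.0493 to 0.951 over the alternatives; -0.31 with all mice), so that 2 neutrophil markers were lower, and Clec4f lost its call (0.0548, with 0.00784 to 0.0548). Alternatives for the markers were chosen after seeing the data. With the median-ratio scale factor, 4 hepatocyte markers were higher and 0 lower, 4 Kupffer cell and macrophage markers higher and 1 lower, 2 endothelial markers higher and 1 lower, and 1 lymphocyte and 1 cholangiocyte marker higher, with 21 of the 60 higher and 5 lower against 19.3% and 19.7% of all genes. With it Hnf4a, Cd68 and Pecam1 lost their calls (adjusted p = 0.181, 0.179 and 0.187, the highest over the alternatives, with 0.00411, 0.0146 and 0.00206 the lowest). Without PZH 1, 1 endothelial marker was higher, without control 1, 2 stellate cell markers were lower, as with the replicate block, and without PZH 6, 1 erythroid marker was lower and 1 lymphocyte marker higher. The call of Alas2, the erythroid marker that rose, was lost without control 1, 2, 3 or 6 or PZH 1, 3, 5 or 6. The part of these differences in the changes of the iron genes was not tested.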

How the data were processed

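Per the submitters' notes and methods, the authors used Trimmomatic for trimming, HISAT2 2.1.0 for mapping (GRCm38) and StringTie 1.3.5 with Ensembl release 95 for assembly, and they deposited FPKM per transcript and mouse. The protein-coding table (29883 transcripts) was used as deposited; the lncRNA table was not used. Transcripts were assigned to genes with GENCODE M21, which held 29876, and the other 7 were kept as genes of their own. Only 2.30% to 4.04% of low values per mouse were whole multiples of a step (tolerance 0.01), against 2% by tolerance alone, so counts were not recovered and depth is unknown.

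Differences were tested on log2(FPKM + 1), without a filter on low values, with limma 3.58.1 in R 4.3.3 and Benjamini-Hochberg adjustment over all genes or all transcripts. The study's criteria were applied to the same fit. Fold changes on this scale understate the change of low genes. Single values and correlations were tested by two-sided exact permutation over 924 labellings or 720 orders. Tables and permutation tests were computed in Python 3.11.15 (numpy 2.4.6, pandas 2.3.3, scipy 1.17.1), sequences were aligned with Biopython 1.88 and searched for words and hairpin patterns in Python, and plots were drawn with matplotlib 3.10.9. The procedure was tested on simulated data.

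The members and lists were chosen with earlier results of these data known. Named genes were every member; in each list the genes past the adjusted threshold without overlap, at most 3 in each direction by size of change; the 3 genes most correlated with Hamp, Id1 and Tfrc; and member transcripts past the threshold. Alternatives were a pseudocount of 0.1, a mean of at least 1 FPKM, a median-ratio scale factor, equal sums per mouse, a mean-variance trend, no variance moderation, the replicate number as a block, and leaving out each mouse in turn.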

Additional observations from a re-analysis of the deposited data

Results flagged for a closer look

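In 5 of 66 groups of 6 mice that were examined, 1 mouse stood apart from the other 5 by a large part of the group's range, where chance gives about 1 in 20. Control 6 had 1559.9 FPKM of Ftl1, and the other control mice had 1055 to 1182. PZH 4 had 12.9 FPKM of the Tfr2 transcript ENSMUST00000196471, and the other PZH mice had 0.528 to 0.999. The most abundant Tfrc transcript took 64.9% of Tfrc FPKM in PZH 3 and 48.4% to 51.6% in the other PZH mice. That of Slc40a1 took 95.7% in control 4 and 98.0% to 99.2% in the other control mice. That of Hfe took 85.7% in PZH 6 and 67.7% to 72.5% in the other PZH mice.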

How the results depend on the processing

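The count of iron genes called lower was 5, also with each mouse left out in turn (5 to 5), and 4 with the median-ratio scale factor. The count of iron genes called higher was 1, and 2 with the median-ratio scale factor. It was 1 to 2 with each mouse left out, and the 2 came without control 3, when Hamp2 passed as well (log2 fold change 1.29, adjusted p = 0.0441, within 0.0441 to 0.190 over the alternatives). Among iron transcripts, 0 were called higher, 1 with the median-ratio scale factor, 1 with the replicate block and 0 to 1 with each mouse left out (1 without PZH 6), and 7 were called lower, or 5 to 7 with each mouse left out. Over the pathway lists, 16 genes were higher, 27 with the median-ratio scale factor, 11 with equal sums per mouse and 11 to 16 with each mouse left out (11 without control 1). With the median-ratio scale factor the higher counts were also 5 for 3 in the hepcidin list, 8 for 4 in the heme list and 8 for 5 in the iron-sulfur list, and 2 for 1 in the sensing list, and the lower counts were 2 for 4 in the sensing list and 1 for 4 in the iron-sulfur list. The cause was not tested. The share of all genes is given only for the values as deposited and with the median-ratio scale factor. Counts under the other alternatives therefore have no background.

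The log2 fold change of Tfrc was 0.16 with the median-ratio scale factor and -0.205 to 0.0825 with each mouse left out, and that of Tfr2 was 0.0231 with that factor. With that factor the log2 fold change was 0.52 for Tmprss6, 0.35 for Slc39a8, 0.48 for Alas2, 0.36 for Ciao1 and 0.44 for Fdxr. Among genes that fell it was -0.23 for Iba57, -0.17 for Hspa9, -0.18 for Egln1 and -0.06 for Lyrm4. The log2 ratio of Fth1 to Ftl1 differed by -0.39 to -0.26 with each mouse left out, and its unadjusted exact permutation p was over 0.05 without PZH 1, 4, 5 or 6 or control 1, 4 or 5. For Tfrc to Fth1 the range was 0.56 to 0.99. The share of the most abundant transcript differed by 0.033 to 0.90 points for Hamp2 (exact permutation p = 0.0390 without PZH 3), -1.20 to 3.17 for Tfrc, -0.10 to 0.59 for Slc40a1, -1.15 to 2.36 for Id1 and -8.37 to -3.85 for Hfe (exact permutation p = 0.0455 without PZH 6). The median log2(FPKM + 1) of all genes in a mouse differed between the groups by -0.20 as deposited and by -0.05 with the median-ratio scale factor.

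Of the 60 cell type markers, for which alternatives were chosen after seeing the data, 15 were higher and 8 lower, and 21 and 5 with the median-ratio scale factor (13 to 16 and 8 to 9 with each mouse left out). Of 948 log2 fold changes of 50 named genes under the alternatives, 862 kept their direction and side of the threshold, 75 kept the direction and lost the call, 3 gained a call and 8 changed direction. Same-numbered mice of the groups did not deviate together (correlation over 0.1 in 0 of 6 pairs), so the numbers do not pair them. With the number as a replicate block, 5 iron genes were lower and 1 higher, and 49 pathway genes were lower and 12 higher. The share of all genes with this block is not given here. Depth is unknown, so precision rests on the spread between mice.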
